A study of Rattus norvegicus with 18 samples.

Results

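Messenger RNA of the fractured femur of older rats was followed on 6 arrays of a series of 18, and the callus phase, 3 days, 1 week and 2 weeks after fracture (3 arrays), was set against the other times, no fracture and 4 and 6 weeks after fracture (3 arrays). The arrays were chosen by age and time from their labels and not by any measured value. All were Affymetrix Rat Genome U34 arrays of intact female Sprague-Dawley rats that were 52 weeks old at fracture. The fracture was a closed, transverse break of the mid-shaft held by an intramedullary rod, and the no-fracture array came from sham controls killed at 0 time. Each array held RNA pooled from 2 rats, taken from the middle of the femoral shaft, with its callus, cortex and marrow, and each time point was 1 array. The other 12 arrays, used here only to estimate spread and to compare ages, came from young rats, 6 weeks old at fracture, and adult rats, whose age at fracture was 26 weeks, at the same 6 times.

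A broken long bone first fills with blood clot and inflamed tissue, then with a callus of fibrous tissue and cartilage, which is replaced by woven bone and later remodelled by osteoclasts. The callus is built by fibroblasts, chondrocytes and osteoblasts that secrete collagens and proteoglycans, whereas the marrow of the shaft holds maturing red cells, granulocytes, lymphocytes, mast cells and fat. Muscle fibres lie against the bone and part of them is taken with the callus. Fewer cells of a type and less RNA per cell cannot be told apart in such a bulk sample.

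The values were linear signals in arbitrary units, scaled by the authors to an average of 500 per array. The older arrays had median signals of 152 to 181, and 12.4% to 17.3% of their probe sets lay below the floor of 20 that was set before taking log2. The 3' to 5' signal ratio of the Gapdh control probes, a sign of RNA integrity, was 1.15 to 1.33 on these arrays. The same ratio for beta-actin was 1.70, 1.70 and 1.71 at 3 days, 1 week and 2 weeks. It was 1.08 without fracture and 1.41 and 1.31 at 4 and 6 weeks. The beta-actin ratio was thus higher on each callus-phase array than on each other array, and its part in the differences was not tested. The no-fracture array stood apart from the other 5. Across probe sets its log2 signals correlated with theirs at r = 0.816 to 0.898, whereas the 4- and 6-week arrays correlated with each other at 0.977 and with the callus-phase arrays at 0.930 to 0.963. Since the other times mix the no-fracture array with the 4- and 6-week arrays, each result is given as signals of all 6 arrays and then against each reference. Tests were made with limma on log2 signals over 8740 probe sets with Benjamini-Hochberg adjustment at 0.05, and "rose" or "fell" is used for what passed. Different time points stand in for replicates, so the p-values measure the spread between times within a phase. In the comparisons with the no-fracture array alone, the spread came from the phases of all 3 ages, and the lone array was assumed to vary like them.

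No probe set rose in the callus phase against the other times (0.0% of those tested), and 2 fell (0.0229%). At an unadjusted p under 0.05, 369 were higher (4.22%) and 733 lower (8.39%), and the 3 arrays of one phase did not overlap with the 3 of the other for 747 higher (8.55%) and 1204 lower probe sets (13.8%). An equal-variance t-test, after Benjamini-Hochberg adjustment, likewise gave 0 higher and 0 lower. The counts depended on single arrays and on the floor, with 11 rising and 7 falling without the 2-week array, 21 falling without the no-fracture array, and 7 rising and 35 falling with a floor of 1. An exact permutation test of 3 arrays against 3 cannot give a p below 0.1. The probe sets that fell were L07410_at, by 1.08 on the log2 scale (adjusted p = 0.035), which has no gene symbol, and U67913_s_at, by 4.50 (adjusted p = 0.035), which matches several genes. Their callus-phase signals lay below the floor or within 1 unit of it, so both differences are lower bounds. Against the no-fracture array alone, 959 probe sets rose (11.0%) and 1449 fell (16.6%) in the callus phase. Against 4 and 6 weeks alone, 7 rose (0.0801%) and 26 fell (0.297%), and 28 and 102 without the 2-week array. The no-fracture array is the one that stood apart. The genes described below by name for the callus phase were not called against all other times, and their values are given with the unadjusted p.

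**Figure D1:**
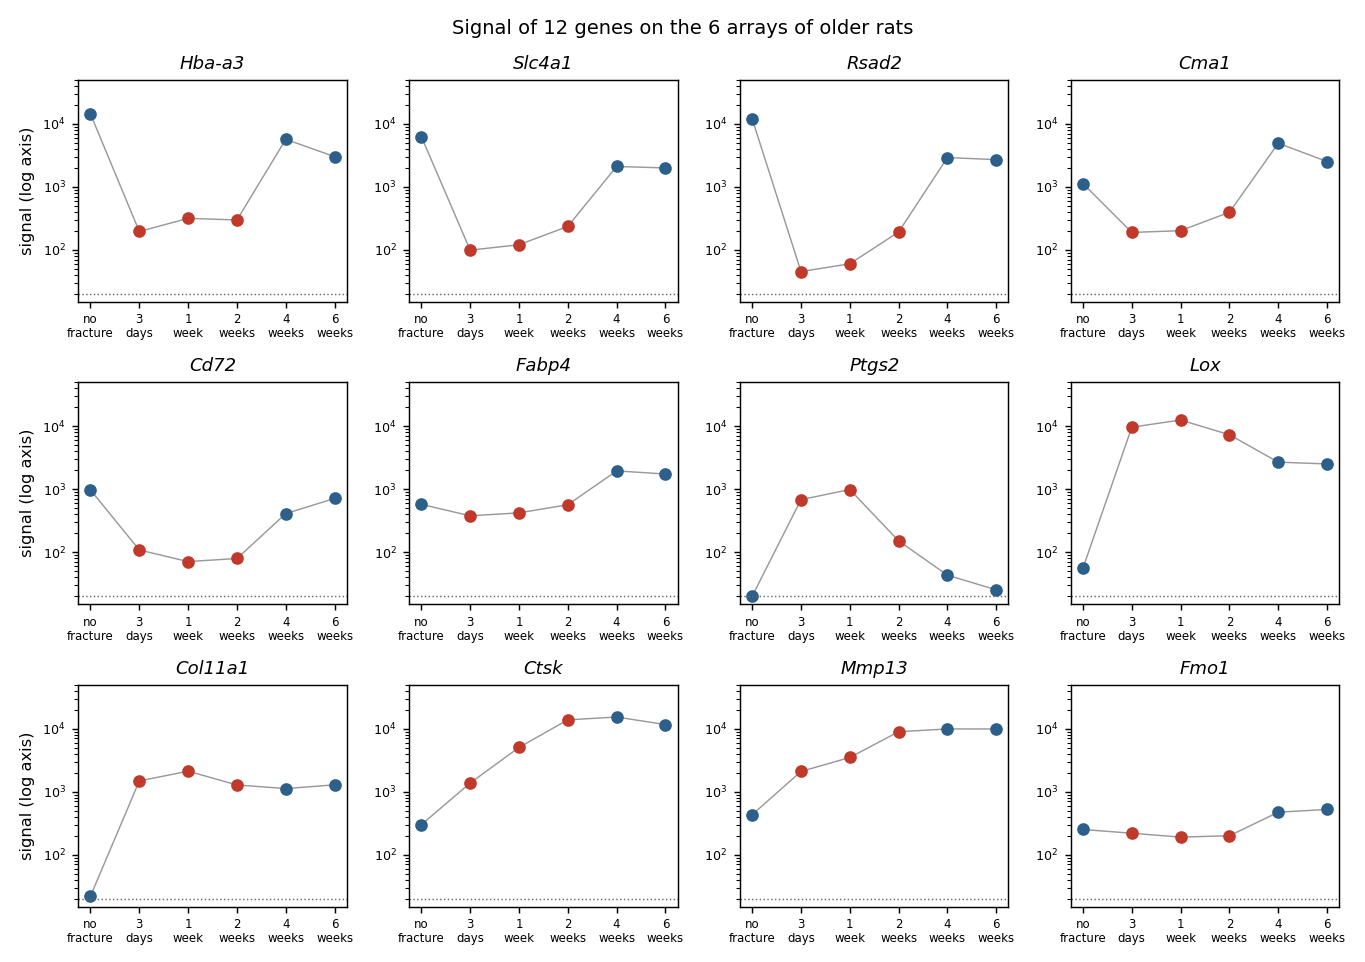
Signals of 12 genes on the 6 arrays of older rats, on a log axis against time; red points are the callus phase, blue points the other times, and the dotted line is the floor of 20. Hba-a3, Slc4a1, Rsad2, Cma1 and Cd72 are lowest on the 3 callus-phase arrays, Ptgs2 is highest there, and Col11a1, Ctsk and Mmp13 stay above their no-fracture signal at every later time.

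The genes of red cell formation were lowest throughout the callus phase. All 10 of 10 measured members were lower on each callus-phase array than on each other array, 9 of them at an unadjusted p under 0.05, with a median log2 difference of -2.39 against -0.11 over all probe sets. Hba-a3, an alpha-globin chain of hemoglobin, had signals of 14255 without fracture, 195, 315 and 297 at 3 days, 1 week and 2 weeks, and 5663 and 3008 at 4 and 6 weeks. All callus-phase values were at most 315, and the later values regained only part of the unfractured signal. Its callus-minus-other difference was -4.57 (SE 0.62, unadjusted p = 0.00074, adjusted p = 0.15). Slc4a1, the band 3 anion exchanger of the red cell membrane, had signals of 6266.5 without fracture, 98.7, 120 and 235 at 3 days, 1 week and 2 weeks, and 2099 and 1991 at 4 and 6 weeks, a difference of -4.40 (SE 0.59, adjusted p = 0.15). It fell by 5.48 against no fracture alone (adjusted p = 0.011), and against 4 and 6 weeks the difference was -3.86 (adjusted p = 0.17). The weakest of its 3 probe sets gave -1.67 against all other times.

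Alas2, which catalyses the entry step of heme production in erythroblasts, had signals of 17357 without fracture, 672, 432 and 689 at 3 days, 1 week and 2 weeks, and 5792 and 4228 at 4 and 6 weeks. The 3 callus-phase values spanned 432 to 689 and did not overlap with the others. Its difference was -3.68 (SE 0.59, adjusted p = 0.17). Hbb, the beta-globin chain, and Gata1, the transcription factor of red cell and mast cell precursors, followed the same course, with differences of -2.17 and -2.42 (adjusted p = 0.16 and 0.21). Against no fracture, 7 of the 10 fell in the callus phase and 1 fell at 4 and 6 weeks, Epb41, a protein of the red cell skeleton (by 2.18, adjusted p = 0.021). The list's mean log2 difference from the no-fracture array was -3.55 in the callus phase and -1.27 at 6 weeks.

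The promoter of Alas2 is shown because GATA factors bind the letters AGATAA in genes of red cells and mast cells. The 250 bases before its start (RefSeq, GRCr8, chrX:22895200-22895449, + strand) hold those letters once, 136 bases before the start, in capitals.
Alas2: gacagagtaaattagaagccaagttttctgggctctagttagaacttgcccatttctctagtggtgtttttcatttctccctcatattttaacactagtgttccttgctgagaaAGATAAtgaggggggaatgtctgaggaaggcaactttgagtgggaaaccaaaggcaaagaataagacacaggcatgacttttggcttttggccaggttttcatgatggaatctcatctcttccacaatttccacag
Searched on both strands, AGATAA was found in 3447 of 33469 rat promoters of this length (10.3%). Of the 9 erythroid genes with a promoter entry, 2 held it, Alas2 and Epor, the erythropoietin receptor. No match says only that these letters are absent from this window.

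Genes of granulocytes were also low. Of 8 measured members, 6 did not overlap between the phases and 5 had an unadjusted p under 0.05, with a median difference of -2.50. S100a8, a calcium-binding protein abundant in neutrophils, had signals of 12284 without fracture, 149, 731 and 187 at 3 days, 1 week and 2 weeks, and 1277 and 2953.5 at 4 and 6 weeks. Its partner S100a9 had 10937 without fracture, 418, 618 and 243 at 3 days, 1 week and 2 weeks, and 908 and 2169.8 at 4 and 6 weeks. The differences were -3.72 (SE 1.07, adjusted p = 0.34) and -2.81 (SE 1.01, adjusted p = 0.38). RatNP-3b, a neutrophil defensin that was not on the list, had signals of 21753 without fracture, 341, 1233 and 325 at 3 days, 1 week and 2 weeks, and 1798.5 and 4840.3 at 4 and 6 weeks, with a difference of -3.48 (adjusted p = 0.37). For all of them the 6-week signal lay below the unfractured signal. Against no fracture, 6 of the 8 fell in the callus phase and 1 fell at 4 and 6 weeks, Prg2, the major basic protein of eosinophils. Alox5, the 5-lipoxygenase of leukotriene synthesis, fell in the callus phase by 1.78 against 4 and 6 weeks (adjusted p = 0.042), a lower bound, since its signals at 1 and 2 weeks were below the floor.

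Rsad2, an interferon-induced antiviral protein, had the largest difference among the genes named. Its signals were 11987 without fracture, 45.1, 59.8 and 192 at 3 days, 1 week and 2 weeks, and 2909 and 2694.5 at 4 and 6 weeks. The callus-phase signals were at most 192, and those at other times were at least 2694.5. The difference was -5.82 (SE 0.85, unadjusted p = 0.0011, adjusted p = 0.17), and its other probe set gave -4.96. It fell by 7.22 against no fracture (adjusted p = 0.004). The other interferon-induced genes did not move as a group. Of 10 measured, 2 did not overlap, Rsad2 and Irf1, both lower, beside 13.8% of all probe sets, and the list's median difference was -0.22. Against no fracture Rsad2, Irf1 and Irf7, a transcription factor of the interferon response, fell, and Ifitm3, a membrane protein that hinders viral entry, rose by 1.90 (adjusted p = 0.0016). The other probe set of Irf1 gave 0.45. Irf7 had signals of 3285 without fracture, 326.5, 511 and 807 at 3 days, 1 week and 2 weeks, and 775 and 534 at 4 and 6 weeks, so its later values stayed with those of the callus phase.

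Interferon response elements repeat GAAA, searched here as a pair of GAAA with any 2 bases between them on either strand, and the promoter of Rsad2 (RefSeq, GRCr8, chr6:48788121-48788370, - strand) holds 1 match on the opposite strand, 147 bases before the start, in capitals.
Rsad2: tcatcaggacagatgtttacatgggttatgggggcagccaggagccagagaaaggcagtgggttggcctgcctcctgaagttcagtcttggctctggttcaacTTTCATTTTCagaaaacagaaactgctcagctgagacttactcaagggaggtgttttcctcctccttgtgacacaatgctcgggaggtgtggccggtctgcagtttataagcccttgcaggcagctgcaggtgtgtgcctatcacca
This motif was found on either strand in 1140 of the 33469 promoters (3.41%) and in 5 of 9 interferon-induced genes with an entry, Gbp2, Ifitm3, Irf7, Oas1a and Rsad2. The holders include genes that fell, a gene that rose and genes that did not pass the test.

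Most mast cell genes were lower in the callus phase than at the other times, and the list mean was highest at 4 weeks. These cells store proteases and histamine in granules and carry the high-affinity receptor for IgE. Of 12 measured members, 8 did not overlap between the phases and 7 had an unadjusted p under 0.05, all lower, with a median difference of -1.71. Against no fracture alone, 1 of the 12 fell in the callus phase, beside 16.6% of all probe sets. None rose, and the median change was -0.81. Mcpt1, a protease, lay above its unfractured signal at each callus-phase time, by 0.78, 0.33 and 1.95 on the log2 scale. Cma1, the mast cell chymase, had signals of 1125 without fracture, 188, 201 and 394 at 3 days, 1 week and 2 weeks, and 4907.5 and 2511 at 4 and 6 weeks. Its signal at 4 weeks exceeded the unfractured one. Its difference was -3.29 (SE 0.63, unadjusted p = 0.0036, adjusted p = 0.22). Cpa3, the mast cell carboxypeptidase, had signals of 96.2 without fracture, 16.7, 46.1 and 147 at 3 days, 1 week and 2 weeks, and 1280.4 and 629 at 4 and 6 weeks, so that its 2-week value overlapped with the unfractured one (difference -3.05, unadjusted p = 0.06). Hdc, which makes histamine, had signals of 76.7 without fracture, 19.6, 10.2 and 10 at 3 days, 1 week and 2 weeks, and 214 and 109.6 at 4 and 6 weeks. All 3 callus-phase signals were below the floor, so its difference of -2.60 (adjusted p = 0.17) is a lower bound.

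Against 4 and 6 weeks alone, both measured chains of the IgE receptor fell in the callus phase. Ms4a2, its beta chain, had signals of 149 without fracture, 1.2, 1.4 and 30.2 at 3 days, 1 week and 2 weeks, and 318 and 230 at 4 and 6 weeks and fell by 3.56 (adjusted p = 0.042), although 1 of its other probe sets gave 0.00, with every signal at the floor. Fcer1a, its alpha chain, had signals of 31.8 without fracture, 2.7, 1.6 and 11.2 at 3 days, 1 week and 2 weeks, and 259.8 and 94.4 at 4 and 6 weeks and fell by 2.97 (adjusted p = 0.037). All 3 callus-phase signals of Fcer1a were below the floor, so its fall is a lower bound. Of the 9 mast cell genes that varied enough to be ordered in time, all 9 were highest at 4 weeks and 8 were lowest in the callus phase. Mcpt3, another protease, was highest without fracture, at a signal of 75.8.

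The promoters of Cma1 (RefSeq, GRCr8, chr15:33390134-33390383, - strand) and Cpa3 (chr2:104673238-104673487, - strand) are shown beside that of Alas2, with AGATAA or its complement in capitals, 64 and 55 bases before the start.
Cma1: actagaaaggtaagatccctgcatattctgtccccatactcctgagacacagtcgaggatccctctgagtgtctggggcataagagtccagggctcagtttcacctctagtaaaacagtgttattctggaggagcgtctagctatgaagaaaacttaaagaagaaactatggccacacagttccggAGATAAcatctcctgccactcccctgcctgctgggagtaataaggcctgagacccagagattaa
Cpa3: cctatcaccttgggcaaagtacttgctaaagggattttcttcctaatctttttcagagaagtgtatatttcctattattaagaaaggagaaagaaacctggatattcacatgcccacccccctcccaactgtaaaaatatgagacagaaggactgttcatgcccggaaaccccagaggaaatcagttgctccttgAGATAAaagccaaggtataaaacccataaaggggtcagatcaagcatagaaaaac
Of the 11 mast cell genes with an entry, 3 held the motif, these genes and Fcer1a.

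Of the 9 fat cell genes that could be ordered in time, 3 were highest at 4 weeks, 3 at 6 weeks and 2 without fracture. Of 17 measured members, 7 did not overlap, all lower in the callus phase, and 8 had an unadjusted p under 0.05, with a median difference of -0.76. Fabp4, the fatty acid binding protein of fat cells, had signals of 576 without fracture, 378.5, 421.5 and 567 at 3 days, 1 week and 2 weeks, and 1954 and 1743 at 4 and 6 weeks. The callus-phase values lay below the unfractured one, and those at 4 and 6 weeks lay well above it. It fell by 2.04 against 4 and 6 weeks (adjusted p = 0.037) and rose by 1.68 at 4 and 6 weeks over no fracture (adjusted p = 0.03). Cfd, the complement factor secreted by fat cells, had signals of 1554 without fracture, 792, 548 and 1183 at 3 days, 1 week and 2 weeks, and 2523 and 2756 at 4 and 6 weeks and fell by 1.72 against 4 and 6 weeks (adjusted p = 0.039). Plin1, which coats lipid droplets, and Agt, the angiotensin precursor, also fell in that comparison, by 0.66 and 2.15, the first a lower bound with callus-phase signals below the floor. Pparg, the transcription factor of fat cell formation, had signals of 27 without fracture, 57.8, 66.1 and 84 at 3 days, 1 week and 2 weeks, and 171 and 163 at 4 and 6 weeks and went the other way against no fracture, since it rose in the callus phase by 1.34 (adjusted p = 0.028) and at 4 and 6 weeks by 2.62 (adjusted p = 0.0023). Scd, the desaturase that makes monounsaturated fat, had signals of 264 without fracture, 599.7, 1814 and 798.5 at 3 days, 1 week and 2 weeks, and 4739.9 and 3388 at 4 and 6 weeks and rose at 4 and 6 weeks by 3.92 (adjusted p = 0.015). Rbp4, the carrier of retinol, rose in both, by 2.52 and 2.61, although the lowest of its other probe sets gave -0.06 for the callus phase. In all, 4 of the 17 fell against 4 and 6 weeks and 4 rose at 4 and 6 weeks over no fracture.

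Among lymphocyte genes the B cell receptor Cd72, named by its size of change, had signals of 974 without fracture, 108.5, 71 and 79.5 at 3 days, 1 week and 2 weeks, and 410.1 and 714 at 4 and 6 weeks. The callus-phase signals lay between 71.0 and 108.5, below all others. Its difference was -2.95 (SE 0.39, unadjusted p = 0.00063, adjusted p = 0.14), and it fell by 2.67 against 4 and 6 weeks (adjusted p = 0.032) and by 3.52 against no fracture (adjusted p = 0.00093). Of the 4 measured B cell markers, 3 did not overlap and were lower, including Cd79b, a chain of the B cell receptor, with signals of 91.4 without fracture, 67, 86.8 and 80.4 at 3 days, 1 week and 2 weeks, and 366 and 488 at 4 and 6 weeks. Ighvl1, an immunoglobulin gene, was likewise lower, with signals of 493 without fracture, 53.5, 47.1 and 131 at 3 days, 1 week and 2 weeks, and 1593 and 2138 at 4 and 6 weeks (difference -4.11, adjusted p = 0.2). In both of these genes the 4- and 6-week signals exceeded the unfractured signal. Of 13 T cell markers, 3 did not overlap, all lower, beside 13.8% of all probe sets, and the median difference of the 13 was -0.34. The 11 macrophage markers had a median difference of 0.20. Among them Lgals3, a lectin of activated macrophages, rose by 2.05 against no fracture (adjusted p = 0.016), and Cd74, the invariant chain of antigen presentation, rose by 1.87 in the callus phase and 2.59 at 4 and 6 weeks (adjusted p = 0.012 and 0.0051).

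**Figure D2:**
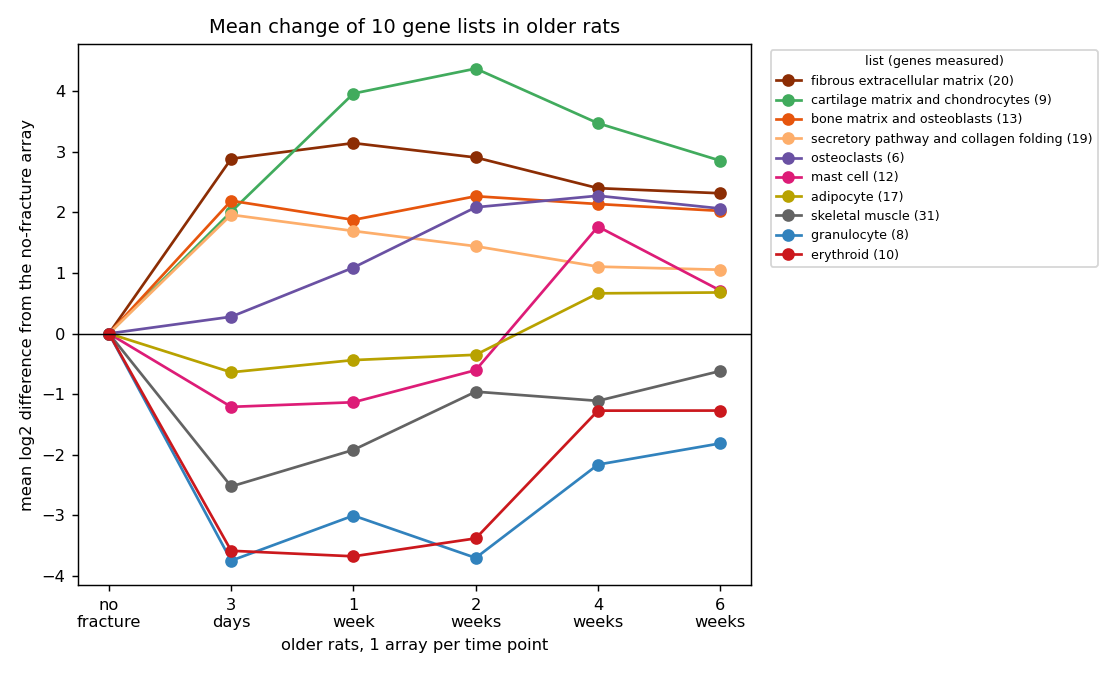
Mean log2 difference from the no-fracture array of 10 gene lists in older rats, 1 array per time point, with the number of genes measured in the legend. The erythroid and granulocyte lists lie lowest for the 3 callus-phase times, the mast cell and fat cell lists lie above 0 from 4 weeks, and the matrix lists remain above 0 at 6 weeks.

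Genes of contractile muscle were lower early and partly back by 2 weeks. Of 31 measured, 25 varied enough to be ordered, of which 24 were highest without fracture and 24 lowest in the callus phase, 18 of those at 3 days. Ckm, the creatine kinase of muscle, had signals of 49820 without fracture, 8011, 7006.5 and 25352 at 3 days, 1 week and 2 weeks, and 19290 and 29822 at 4 and 6 weeks. Its 2-week signal lay above its 4-week signal, so that the phases overlapped. Myl2, a myosin light chain of slow muscle, had signals of 17329 without fracture, 329, 324 and 4002 at 3 days, 1 week and 2 weeks, and 5031 and 8143 at 4 and 6 weeks (difference -3.57, SE 1.18, adjusted p = 0.37). The list's median difference was -1.22. Against no fracture 2 of the 31 fell, Cacna1s, a calcium channel of muscle excitation, and Tcap, which caps titin (by 2.36 and 2.55, adjusted p = 0.031 and 0.041), and none rose. Over all probe sets 16.6% fell and 11.0% rose in that comparison. Of the 31, 5 were lower and 1 higher without overlap between the phases, beside 13.8% and 8.55% of all probe sets. Trim63, a ubiquitin ligase of muscle breakdown, was on the other side, with signals of 682 without fracture, 956, 852.5 and 779 at 3 days, 1 week and 2 weeks, and 567 and 700.3 at 4 and 6 weeks (difference 0.41, unadjusted p = 0.027, adjusted p = 0.37), but its other probe set gave -0.14. How much muscle was taken with each femur was not measured, and the part of these shifts in other results was not tested.

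Genes of embryonic or denervated muscle peaked at 1 week. Chrna1, the alpha subunit of the muscle acetylcholine receptor, had signals of 321 without fracture, 1435, 3091 and 479.5 at 3 days, 1 week and 2 weeks, and 309.6 and 409.8 at 4 and 6 weeks, and Actc1, the cardiac actin of immature fibres, had 1432.5 without fracture, 1226, 7516 and 3445 at 3 days, 1 week and 2 weeks, and 873 and 940.5 at 4 and 6 weeks. Tnnt2, the cardiac troponin T that immature skeletal fibres also make, had signals of 109.5 without fracture, 743, 1278 and 853 at 3 days, 1 week and 2 weeks, and 362 and 322 at 4 and 6 weeks. Each was highest at 1 week. Of 15 genes measured, 8 could be ordered and 7 of them were highest at 1 week. Against no fracture Tnnt2 rose by 3.09 (adjusted p = 0.0051) and Ankrd1, a stretch-induced protein of muscle, by 1.70 (adjusted p = 0.041).

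Enzymes that burn fatty acids were lower in the callus phase, with 12 of 23 measured members lower on all 3 callus-phase arrays than on the others and 1 higher, Decr1. Acsl1, which activates fatty acids, had signals of 1604 without fracture, 235.5, 304 and 431 at 3 days, 1 week and 2 weeks, and 1006 and 846 at 4 and 6 weeks, with a difference of -1.82 (SE 0.34, unadjusted p = 0.0032, adjusted p = 0.21). Against no fracture 12 fell in the callus phase and none rose, including Fabp3, the fatty acid carrier of muscle, by 2.91 (adjusted p = 0.011), and Hadh, by 2.44 (adjusted p = 0.013). Cpt1b, which moves fatty acids into muscle mitochondria, was among 4 that also fell at 4 and 6 weeks, by 1.58 (adjusted p = 0.0033). Of 34 genes of oxidative phosphorylation and the citrate cycle, 12 fell against no fracture, by 0.73 to 1.46. Slc25a5, an ADP carrier of dividing cells, went against its list and rose by 2.46 (adjusted p = 0.00079), whereas its muscle form Slc25a4 fell by 1.13 (adjusted p = 0.045).

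Ptgs2, the inducible cyclooxygenase that makes prostaglandins, had the largest positive difference among the named genes. Its signals were 6.8 without fracture, 682, 989 and 151 at 3 days, 1 week and 2 weeks, and 43.2 and 25.3 at 4 and 6 weeks. All callus-phase values were at least 151, and those at other times were at most 43.2. The difference was 4.06 (SE 0.82, unadjusted p = 0.0044, adjusted p = 0.24), a lower bound because the unfractured signal was below the floor, and its other probe set gave 0.56. Kctd13, an adaptor of a ubiquitin ligase, was higher on every callus-phase array, with signals of 1163 without fracture, 7186, 9894 and 15076 at 3 days, 1 week and 2 weeks, and 1211 and 630.1 at 4 and 6 weeks, and increased from 3 days to 2 weeks. Its difference was 3.41 (SE 0.40, unadjusted p = 0.00036, adjusted p = 0.13), but the lowest of its other probe sets gave -0.35. Pdlim5, which binds actin filaments, had signals of 151 without fracture, 990.5, 641.5 and 538 at 3 days, 1 week and 2 weeks, and 184 and 141 at 4 and 6 weeks and a difference of 2.15 (SE 0.27, adjusted p = 0.14). For Ptgs2, Kctd13 and Pdlim5 the 6-week signal had returned to within 2-fold of the unfractured one.

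The other genes named for a higher callus phase had differences of 1.99 to 2.95 and did not overlap between phases. They were Rasl11b, a Ras-like protein, Csrp2, a LIM protein of smooth muscle, P3h4, which takes part in collagen hydroxylation, Vcan, the proteoglycan versican, Cdkn1a, the p21 inhibitor of the cell cycle, Lxn, an inhibitor of carboxypeptidases, Gprc5c, an orphan receptor, Tnnt2 and Copz2. Copz2, a subunit of the coat of secretory vesicles, had signals of 186 without fracture, 2127, 1668 and 2063 at 3 days, 1 week and 2 weeks, and 772 and 816.5 at 4 and 6 weeks. Its phases were narrow, and it rose by 3.39 against no fracture (SE 0.15, adjusted p = 8.5e-08) and by 1.29 against 4 and 6 weeks (SE 0.12, adjusted p = 0.00093). It was the only named gene that rose against both references. Cdkn1a had signals of 156 without fracture, 666, 1314 and 317 at 3 days, 1 week and 2 weeks, and 104 and 106 at 4 and 6 weeks, and its value at 6 weeks was below the unfractured one. Rasl11b had signals of 34.5 without fracture, 178, 968 and 368 at 3 days, 1 week and 2 weeks, and 61.6 and 64.1 at 4 and 6 weeks, with its highest value at 1 week.

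Inflammatory mediators moved in both directions. Of 22 measured, 2 rose and 6 fell in the callus phase against no fracture, beside 11.0% and 16.6% of all probe sets. Il6, a cytokine of the early response, had signals of 17.2 without fracture, 732, 1059.7 and 21.1 at 3 days, 1 week and 2 weeks, and 23.4 and 8.3 at 4 and 6 weeks. It was raised on the first 2 callus-phase arrays and at or near the floor on the third, so the phases overlapped (difference 3.59, unadjusted p = 0.078). Ccl2, which attracts monocytes, had signals of 164.5 without fracture, 1558, 2442 and 491 at 3 days, 1 week and 2 weeks, and 579.8 and 535 at 4 and 6 weeks and rose by 2.90 against no fracture (adjusted p = 0.039), as did Il18 by 2.14 (adjusted p = 0.0093). Nos2, the inducible nitric oxide synthase, fell by 1.59 (adjusted p = 0.013, although 1 of its other probe sets gave 0.91). Among 33 growth factors and their binding proteins, 7 rose and 5 fell against no fracture, beside the same 11.0% and 16.6% of all probe sets. Tgfb1, a growth factor stored in bone matrix, had signals of 499 without fracture, 1705, 1185.5 and 1181 at 3 days, 1 week and 2 weeks, and 873 and 514 at 4 and 6 weeks, did not overlap between phases (difference 1.14, adjusted p = 0.31) and rose by 1.42 (adjusted p = 0.019). Tgfb3 rose by 3.50, Ptn, the heparin-binding factor pleiotrophin, by 3.07, and Igf1, insulin-like growth factor, by 2.87 (adjusted p = 0.00013, 0.0065 and 0.036), although the lowest of the other Igf1 probe sets gave -0.32. Sfrp4, which binds Wnt ligands, had signals of 40 without fracture, 167, 389 and 394.5 at 3 days, 1 week and 2 weeks, and 486 and 849 at 4 and 6 weeks and was highest at 6 weeks. Fgf9, a fibroblast growth factor, fell by 1.80 (adjusted p = 0.0039).

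Most genes of the secretory pathway were higher in the callus phase. Cells that secrete collagen fold it in the endoplasmic reticulum and ship it in coated vesicles. Of 19 measured members, 14 did not overlap, all higher in the callus phase, and 8 had an unadjusted p under 0.05, with a median difference of 1.05. Ppib, the cyclophilin that turns prolines in procollagen, had signals of 851 without fracture, 5601, 6068 and 4493 at 3 days, 1 week and 2 weeks, and 3131 and 3054 at 4 and 6 weeks. Pdia3, a disulfide isomerase, had 595 without fracture, 4075, 4356.5 and 2641 at 3 days, 1 week and 2 weeks, and 1686.5 and 1919 at 4 and 6 weeks, and Hspa5, the main chaperone of the endoplasmic reticulum, had 894 without fracture, 4277.5, 3749 and 2825.5 at 3 days, 1 week and 2 weeks, and 1784 and 2009 at 4 and 6 weeks. In each the phases did not overlap, and the later signals lay between the callus phase and no fracture. Against no fracture 15 of the 19 rose in the callus phase and 5 rose at 4 and 6 weeks. The largest were Arf4, a GTPase of vesicle traffic, by 2.86 (adjusted p = 0.00053), Ppib by 2.65 (adjusted p = 0.00012), Pdia3 by 2.60 (adjusted p = 0.0011) and Sec11a, a subunit of signal peptidase, by 2.21 (adjusted p = 0.00047). All 14 genes that could be ordered were highest in the callus phase, 8 of them at 3 days.

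Genes of the fibrous matrix rose and stayed raised. Of 20 measured members, 16 rose in the callus phase against no fracture and 14 rose at 4 and 6 weeks, none fell in either, and 12 did not overlap between the phases. The median difference was 1.31 against all other times, 2.96 against no fracture and 0.58 against 4 and 6 weeks, beside -0.11, -0.17 and -0.03 over all probe sets. Lox, lysyl oxidase, which crosslinks collagen, had signals of 56.1 without fracture, 9650.3, 12561 and 7322.5 at 3 days, 1 week and 2 weeks, and 2691 and 2519 at 4 and 6 weeks. It rose by 7.42 in the callus phase (SE 0.61, adjusted p = 1.8e-05) and by 5.54 at 4 and 6 weeks (SE 0.64, adjusted p = 0.00033), and the lowest of its other probe sets gave 1.60 for the callus phase. Postn, periostin, a matrix protein of healing tissue, had signals of 300.3 without fracture, 6978, 9596 and 9569.9 at 3 days, 1 week and 2 weeks, and 4571 and 3635.5 at 4 and 6 weeks and rose by 4.84 and 3.76 (adjusted p = 3.4e-05 and 0.00044). Col3a1, the collagen of young scar, had signals of 1072 without fracture, 17631, 20288 and 15760 at 3 days, 1 week and 2 weeks, and 12676 and 13540 at 4 and 6 weeks, all later values being at least 12676. Col5a2, a collagen that starts fibrils, rose by 4.70 and 4.46. Eln, elastin, and Ccn1, a matricellular protein, did not share this course, with signals of 1174 without fracture, 598, 613 and 1085 at 3 days, 1 week and 2 weeks, and 1021 and 766.5 at 4 and 6 weeks for Eln. Of the 19 that could be ordered, 18 were lowest without fracture and 12 highest at 1 week.

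Cartilage genes had the largest rise in the list means and had their highest mean at 2 weeks. Col2a1, the main collagen of cartilage, had signals of 86.3 without fracture, 415, 7365 and 13222 at 3 days, 1 week and 2 weeks, and 6653 and 2592 at 4 and 6 weeks. Col10a1, the collagen of hypertrophic cartilage, had 12 without fracture, 6.3, 1284 and 5501 at 3 days, 1 week and 2 weeks, and 921 and 320.1 at 4 and 6 weeks. In both genes the 3-day signal was low, so that the callus phase overlapped with the later times and neither passed a test. Their other probe sets did not share this course, with callus-phase changes from no fracture of 0.12 for Col2a1 and 0.04 for Col10a1. That of Col10a1 had a 6-week change of -1.11. Acan, the proteoglycan aggrecan, had signals of 18.8 without fracture, 1616.5, 2177 and 1717 at 3 days, 1 week and 2 weeks, and 709 and 570.4 at 4 and 6 weeks and was high by 3 days. It rose in the callus phase by 6.51 (SE 1.16, adjusted p = 0.0032) and at 4 and 6 weeks by 4.99 (adjusted p = 0.025), both lower bounds. Col11a1, a minor collagen of cartilage fibrils, had signals of 22 without fracture, 1482, 2116 and 1279 at 3 days, 1 week and 2 weeks, and 1121 and 1284 at 4 and 6 weeks and rose by 6.17 (adjusted p = 2.2e-06) and 5.77 (adjusted p = 7.1e-06). Comp rose in the callus phase by 3.70 (adjusted p = 0.015). In all, 3 of 9 rose in the callus phase and 2 at 4 and 6 weeks, with a median callus-minus-other difference of 1.53. Cnmd, chondromodulin, ended below its unfractured signal, with signals of 133 without fracture, 56.7, 135 and 158 at 3 days, 1 week and 2 weeks, and 63.2 and 70.5 at 4 and 6 weeks.

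Most bone matrix genes were above their unfractured signal on every array after fracture. Ibsp, Spp1 and Col1a1 had signals of at least 218 on all 6 arrays. Ibsp, bone sialoprotein, had signals of 218 without fracture, 4636, 6151 and 3585 at 3 days, 1 week and 2 weeks, and 3288 and 3545 at 4 and 6 weeks. Spp1, osteopontin, had 1334.5 without fracture, 9599, 9112 and 10979 at 3 days, 1 week and 2 weeks, and 12622 and 11429 at 4 and 6 weeks, and Col1a1, the main collagen of bone, had 3711 without fracture, 23086, 19975 and 21092 at 3 days, 1 week and 2 weeks, and 21800 and 23784 at 4 and 6 weeks. The values after fracture were all several-fold above the unfractured one and close to each other. Those of Col1a1, except at 1 week, lay above 20000, the upper signal limit of the clustering in the methods. Of 13 measured, 9 rose in the callus phase and 9 at 4 and 6 weeks, with medians of 2.21 and 2.08, and the callus-minus-other median was 0.77. Serpinh1, the collagen chaperone, rose by 4.57 (adjusted p = 9.4e-05) and Ibsp by 4.42 (adjusted p = 8.2e-06). Bglap, osteocalcin, a protein of mature osteoblasts, took another course, with signals of 6606 without fracture, 3759, 3441 and 11386 at 3 days, 1 week and 2 weeks, and 17257 and 16289 at 4 and 6 weeks, below the unfractured signal at 3 days and 1 week and above it from 2 weeks.

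Of the 3 osteoclast genes that could be ordered in time, 2 were highest at 4 weeks and 1 at 2 weeks. Of 20 proteases and inhibitors, 12 rose in the callus phase against no fracture and 9 at 4 and 6 weeks. Mmp13, the collagenase of cartilage and bone, had signals of 431 without fracture, 2095, 3492 and 8956 at 3 days, 1 week and 2 weeks, and 9910.1 and 9904 at 4 and 6 weeks, higher at each later time up to 4 weeks. It rose by 3.22 in the callus phase (adjusted p = 0.025) and by 4.52 at 4 and 6 weeks (adjusted p = 0.012). Mmp14, a membrane-bound metalloprotease, rose by 3.56 and Timp2, an inhibitor, by 3.36 (adjusted p = 3.7e-05 and 0.00038). Mmp8, the collagenase of neutrophils, went against the list and fell by 3.42 (adjusted p = 0.0097), a lower bound with a 2-week signal below the floor. Ctsk, cathepsin K, which osteoclasts use to digest collagen, had signals of 299 without fracture, 1373, 5037 and 13827 at 3 days, 1 week and 2 weeks, and 15324 and 11628 at 4 and 6 weeks. Acp5, their acid phosphatase, had 573 without fracture, 431, 1761 and 11078 at 3 days, 1 week and 2 weeks, and 12044 and 10685 at 4 and 6 weeks. Both were highest at 4 weeks, and both had a 2-week signal within the range of the 4- and 6-week signals. Ctsk rose by 3.94 in the callus phase (adjusted p = 0.036) and 5.48 at 4 and 6 weeks (adjusted p = 0.02), and for Acp5 the later change was 4.31 (adjusted p = 0.17). Of 6 osteoclast genes measured, Ctsk alone passed.

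Other cell types and gene groups moved less as groups. Beside the counts that follow, 11.0% of all probe sets rose and 16.6% fell in the callus phase against no fracture. Of 14 endothelial genes the median callus-minus-other difference was -0.02, and against no fracture Kdr, the receptor of vascular endothelial growth factor, rose by 1.15 (adjusted p = 0.022) and Thbd, thrombomodulin, fell by 0.79 (adjusted p = 0.032). Of 14 genes of Schwann cells and myelin (median -0.31), Pmp22 and Prx, both of peripheral myelin, rose by 1.33 and 1.58, whereas Mag, a myelin adhesion protein, and Ngfr, the low-affinity nerve growth factor receptor, fell by 1.55 and 2.23. S100b, made by Schwann cells and chondrocytes, had signals of 32.7 without fracture, 31.2, 835 and 413 at 3 days, 1 week and 2 weeks, and 722 and 624 at 4 and 6 weeks, with no passing test. Of 19 neuron and axon genes (median -0.29), 2 rose, Gal and Uchl1, and 5 fell, among them Syn1, a synaptic vesicle protein, by 1.42 (adjusted p = 0.0035), and Calca, the precursor of calcitonin gene-related peptide, by 1.45 (adjusted p = 0.049). Of 19 immediate early genes (median 0.58), Egr1, Klf4 and Klf10, all zinc finger transcription factors, rose by 1.83, 1.51 and 2.06, and Fosl2, a Fos family member, fell by 1.59. Other probe sets went the opposite way, with -1.14 for Egr1, -0.33 for Klf10 and 0.39 for Fosl2, as did those of Pmp22, Thbd and Uchl1, with -0.11, 0.55 and -0.55. The other probe set of Calca and 1 of the others of Mag gave 0.00. Of 23 cell cycle genes (median -0.08), Cdk4, a kinase of early division, rose by 1.95, Prim1, a DNA primase subunit, by 2.07, and Cdc25b, a phosphatase that starts mitosis, fell by 3.19. The weakest of the other Cdc25b probe sets gave -0.49. The 6 housekeeping genes measured had a median difference of 0.12, with Actb, beta-actin, between 11885 and 17784.

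Whether a gene had returned was described by 2-fold limits, with 1 array at 6 weeks and 1 without fracture and so with no test. The mean of the callus phase was at least 2-fold above no fracture for 1006 probe sets (11.5% of 8740) and below for 1223 (14.0%), where a signal of at least 200 was reached on 1 of the arrays. Of these, 706 up (70.2% of those raised, 8.08% of all) and 625 down (51.1% of those lowered, 7.15% of all) were still at least 2-fold from no fracture at 6 weeks in the same direction. The median share of the callus-phase log2 change that remained at 6 weeks was 76.6% for those raised and 66.0% for those lowered. Most of those not returned were past 2-fold at 4 weeks as well, 650 up and 433 down. Against no fracture, 585 probe sets rose (6.69%) and 537 fell (6.14%) at 4 and 6 weeks, and 339 and 321 without the 4-week array. Of the fibrous matrix genes 18 of 20 measured had not returned, and 8 of 13 bone, 6 of 9 cartilage, 11 of 20 protease and 9 of 19 secretory genes had not. By contrast 18 of 31 muscle genes had returned and 6 had not. Of 10 erythroid genes, 6 had not returned and 3 had, and 5 of 8 granulocyte genes had not.

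**Figure D3:**
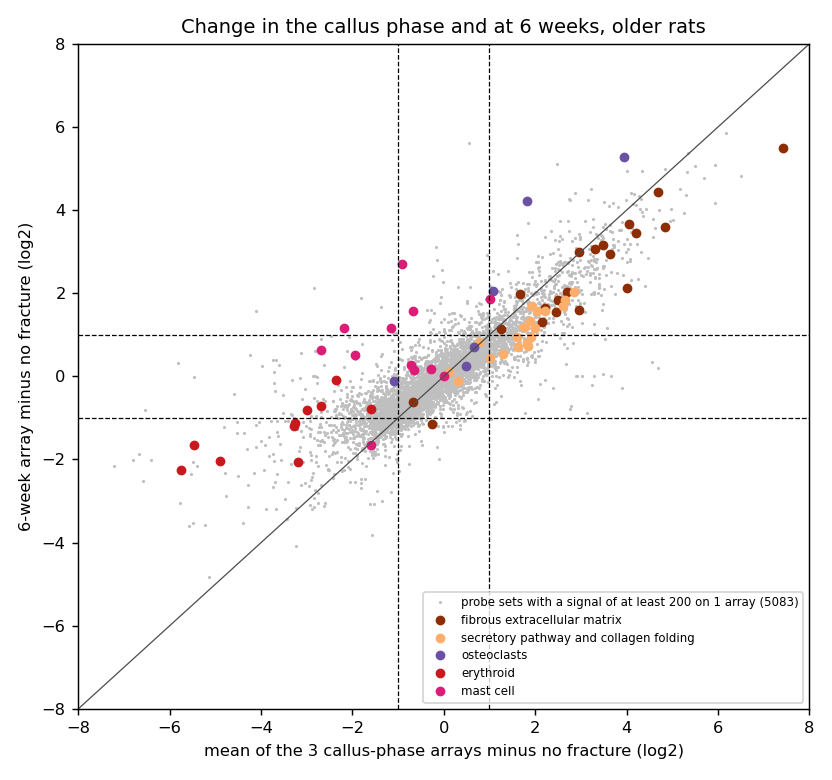
Change from the no-fracture array at 6 weeks (vertical, log2) against the mean change in the callus phase (horizontal, log2) for 5083 probe sets that reached a signal of 200 on 1 older array, with 5 gene lists coloured; dashed lines mark 2-fold and the diagonal equal change. Points outside the dashed lines in the same direction are the 706 raised and 625 lowered probe sets that had not returned, and most fibrous matrix genes lie in the upper right.

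The 10 genes with the largest rise remaining at 6 weeks were Col11a1, Lox, Sdc1, Ctsk, Mt3, Aebp1, Gja1, Serpine2, Col2a1 and Acan, with 6-week log2 changes of 4.83 to 5.87. Other probe sets of Col11a1 and Col2a1 gave 6-week changes of -0.22 and -0.10 and so had returned. Sdc1, the cell surface proteoglycan syndecan 1, had signals of 25.2 without fracture, 887, 1312 and 937 at 3 days, 1 week and 2 weeks, and 1169.9 and 1046 at 4 and 6 weeks. It rose at 4 and 6 weeks by 5.46 (SE 0.31, adjusted p = 9e-07), but its other probe set gave 0.44 at 6 weeks. Aebp1, a collagen-binding protein, had signals of 44.9 without fracture, 1570.3, 2282 and 2371 at 3 days, 1 week and 2 weeks, and 1629 and 1495 at 4 and 6 weeks and rose by 5.12 (adjusted p = 2.7e-05). Gja1, the gap junction protein connexin 43, had signals of 22.3 without fracture, 758, 766 and 460.3 at 3 days, 1 week and 2 weeks, and 895 and 703 at 4 and 6 weeks and rose by 5.15 (adjusted p = 0.0034). Serpine2, protease nexin 1, which inhibits thrombin and plasminogen activators, had signals of 99.9 without fracture, 1003.5, 1541 and 2724 at 3 days, 1 week and 2 weeks, and 3621 and 3068 at 4 and 6 weeks, highest at 4 weeks, and rose by 5.06 (adjusted p = 0.017). Mt3, a metallothionein, was raised only from 1 week, with signals of 55.9 without fracture, 33.1, 366 and 2459.6 at 3 days, 1 week and 2 weeks, and 2135 and 1944 at 4 and 6 weeks, and its later change of 5.19 did not pass (adjusted p = 0.19). The signals of these 10 genes without fracture were at most 299, and those of Col11a1, Gja1 and Sdc1 were within 6 units of the floor.

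The 10 largest falls remaining at 6 weeks were those of Edn3, Nrgn, Lypd8l1, Rps2-ps1, Prg2, Padi4, Oprd1, Fshb, Dnase1 and Sds, with log2 changes of -4.07 to -3.04. Another probe set of Fshb and 1 of Sds gave a 6-week change of 0.00, and that of Dnase1 gave -0.98, all within 2-fold. Those of Edn3 and Rps2-ps1 gave -1.20 and -1.63, and that of Nrgn gave the larger fall of -4.82. Prg2 had signals of 1092 without fracture, 22.4, 29.1 and 21.6 at 3 days, 1 week and 2 weeks, and 41.6 and 95.2 at 4 and 6 weeks. Padi4, a deiminase of granulocytes, had signals of 3504.5 without fracture, 295, 280.3 and 162 at 3 days, 1 week and 2 weeks, and 251 and 384 at 4 and 6 weeks, and Lypd8l1 had 8362 without fracture, 226, 242 and 203 at 3 days, 1 week and 2 weeks, and 317 and 699 at 4 and 6 weeks. In each, all 5 signals after fracture were at least 9-fold below the unfractured one. At 4 and 6 weeks Lypd8l1 fell by 4.15 (adjusted p = 0.0059), Prg2 by 4.12 (adjusted p = 0.011) and Padi4 by 3.50 (adjusted p = 0.0049). Ceacam4 and Pf4, platelet factor 4, also fell, by 2.77 and 2.29 (adjusted p = 0.021 and 0.044). Oprd1, the delta opioid receptor, Fshb, a chain of follicle-stimulating hormone, Sds, a serine dehydratase, and Edn3, endothelin 3, had unfractured signals of 208 to 416 and 6-week signals of 23.3 to 25.3. Oprd1 and Sds passed the test at 4 and 6 weeks (adjusted p = 0.02 and 0.02), Fshb and Edn3 did not (adjusted p = 0.16 and 0.17). Near the 2-fold limit were Or9s23b, an olfactory receptor counted as returned with a 6-week change of -0.95, and Trhr, the receptor of thyrotropin-releasing hormone, counted as not returned with -1.03. On the raised side Sec61a1, a channel of the endoplasmic reticulum, was counted as returned with 0.95 and Igfbp3, a carrier of insulin-like growth factors, as not returned with 1.11.

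Of the 8740 probe sets, 2367 had a highest signal at least 3 times the lowest and at least 100 above it, limits taken from the clustering in the methods. The upper signal limit of 20000 used there was not applied, and capping signals at it left 2364 probe sets, 1058 of them highest without fracture. No fracture was the highest time for 1062 of them (44.9%) and the lowest for 906 (38.3%), so that it was at one end of the order for 83.1%. The highest signal lay at 3 days in 317, 1 week in 489, 2 weeks in 154, 4 weeks in 206 and 6 weeks in 139. The lowest lay at 3 days in 374, 1 week in 552, 2 weeks in 278, 4 weeks in 90 and 6 weeks in 95. Of 720 possible orders of 6 times, 412 were seen among 2286 probe sets without ties. The commonest, in 82 probe sets, went up from 1 week through 3 days, 2 weeks, 4 weeks and 6 weeks to no fracture, as for Myl2 and Syk. In the next, 79 probe sets, 4 and 6 weeks changed places, as for Alas2, and the third, 72 probe sets, ran the other way, from no fracture up through 6, 4 and 2 weeks and 3 days to 1 week, as for Lox. In 1096 probe sets the 6-week signal lay between no fracture and the whole callus phase, in 793 both the 4- and 6-week signals did, and in 1308 the 6-week signal was nearer to no fracture than the 4-week signal. With 1 array per time, neighbouring times in an order were not tested against each other.

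**Figure D4:**
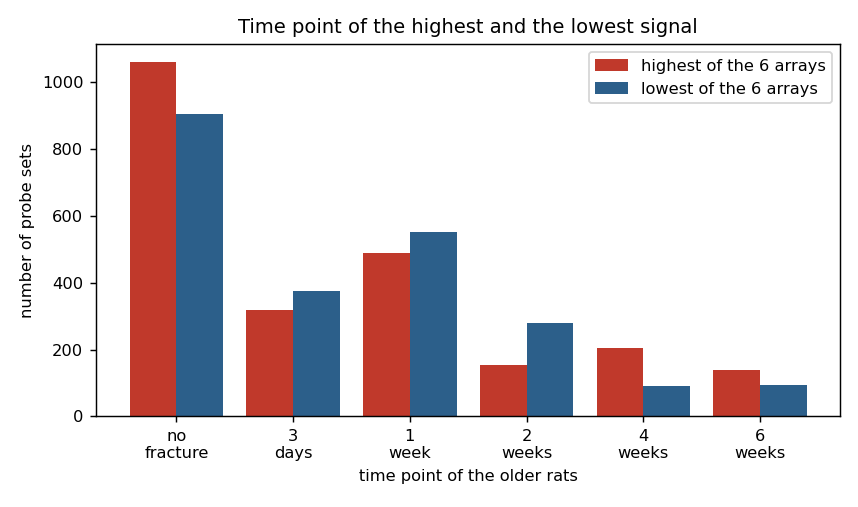
Number of the 2367 probe sets meeting the limits whose highest (red) or lowest (blue) signal fell at each time point of the older rats. No fracture holds 1062 highest and 906 lowest signals, and 1 week holds the most of any time after fracture, 489 and 552.

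The study asked how age bears on neural genes, and the gene groups it named were looked up on these arrays. The groups were chosen by the study on samples that include these, so their counts are no independent evidence. The study compared the 3 ages, with 3 arrays per age and time point. The counts here are of changes within older rats against 1 no-fracture array, so they do not repeat the study's comparison of ages. Of 8 genes given for a prolonged decrease in older rats, 2 fell in the callus phase against no fracture, Nrgn and Lypd8l1, and 1 fell at 4 and 6 weeks, Lypd8l1. Over all probe sets 16.6% and 6.14% fell in these comparisons. Nrgn, neurogranin, had signals of 1175.5 without fracture, 34.5, 17.5 and 21.9 at 3 days, 1 week and 2 weeks, and 31.5 and 97.6 at 4 and 6 weeks and fell by 5.57 in the callus phase (adjusted p = 0.013), a lower bound with a 1-week signal below the floor, with -4.41 later (adjusted p = 0.071). Gabbr2, a GABA receptor subunit, and Npy, neuropeptide Y, were not returned at 6 weeks by the 2-fold limit, with signals of 234 and 429.8 without fracture and 42.5 and 163 at 6 weeks. Prlhr went from 130.2 to 78.2 and Nnat from 361 to 389, neither past 2-fold, and every older signal of Acsl6 was below the floor. Sncg, gamma-synuclein, which fat cells also make, had signals of 150.5 without fracture, 63.7, 113 and 353 at 3 days, 1 week and 2 weeks, and 658.5 and 1050.2 at 4 and 6 weeks and so ended above its unfractured value.

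Of 9 genes in the group with a greater rise in older rats, 2 rose in the callus phase and at 4 and 6 weeks, beside 11.0% and 6.69% of all probe sets. C1s, a complement protease, had signals of 138 without fracture, 784, 2304 and 1399 at 3 days, 1 week and 2 weeks, and 1064 and 1189.9 at 4 and 6 weeks and rose by 3.31 and 3.03 (adjusted p = 0.0049 and 0.016). The other was the probe set AF030089UTR#1_at, which has no gene symbol, with signals of 17.7 without fracture, 625, 2846 and 1038 at 3 days, 1 week and 2 weeks, and 338 and 363 at 4 and 6 weeks, a rise of 5.94 (adjusted p = 0.0017) that is a lower bound, its unfractured signal being below the floor. Spon1, a matrix protein of axon guidance, changed from 27.9 to 1034 at 1 week, a callus-phase change of 3.63 (adjusted p = 0.052), and Thbs4, a thrombospondin, from 1114 to 3662 (change 1.25, adjusted p = 0.24). The callus-phase changes of Camk2b, Ncan, Ntm and the probe set M96375_s_at were -0.11, 0.30, 0.97 and 2.08, none past the test, and Chrna1 is given above. Of 7 genes given as raised more in younger rats, Ptprz1, a receptor phosphatase, came nearest to the test, with a callus-phase change of 1.85 (adjusted p = 0.053). Of 25 neural genes raised at all ages, 16 rose in the callus phase and Vps33b fell, and 11 rose at 4 and 6 weeks. Gal, the neuropeptide galanin, had signals of 24.7 without fracture, 206, 314 and 925.5 at 3 days, 1 week and 2 weeks, and 566 and 471 at 4 and 6 weeks, and Cdh2, the adhesion molecule N-cadherin, had 17.4 without fracture, 260.1, 168.5 and 398 at 3 days, 1 week and 2 weeks, and 407 and 359.8 at 4 and 6 weeks. Of 13 lowered at all ages, 8 fell in the callus phase and 2 fell at 4 and 6 weeks, beside 16.6% and 6.14% of all probe sets.

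The callus-phase difference of older rats was compared with those of the other ages by an interaction term with time point in the fit. No probe set differed between older and adult rats (0.0% higher and 0.0% lower), with 123 higher (1.41%) and 104 lower (1.19%) at an unadjusted p under 0.05, nor between older and young rats (0.0% and 0.0%), with 191 (2.19%) and 378 (4.32%). With the no-fracture array as the only reference, 283 were higher and 159 lower than in adult rats and 218 and 315 than in young rats. A p that misses the threshold does not show that the ages acted alike. The later change, 4 and 6 weeks minus no fracture, did differ. It was higher in older than adult rats for 198 probe sets (2.27%) and lower for 123 (1.41%), and against young rats higher for 282 (3.23%) and lower for 240 (2.75%). With a floor of 1 these counts were 8 and 5 against adult rats and, for those lower than in young rats, 27. Of the calls in the fit of all probe sets, 19 and 16 against adult rats and 215 and 11 against young rats lay among the 4131 brighter probe sets, whose mean signal was 200 or more. Refitted on the brighter probe sets alone, the later change gave 5 and 3 against adult rats and, for those lower than in young rats, 9. The 4- and 6-week arrays of young rats had Gapdh 3' to 5' ratios of 3.48 and 6.57, above all other arrays, and their part in the comparison was not tested.

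Each such difference is the sum of a difference between ages at 4 and 6 weeks and one, of opposite sign, without fracture, and the unfractured term was mostly the larger. Of the 215 brighter probe sets with a higher later change in older than young rats, the unfractured term was the larger in 178, with median log2 differences, old minus young, of -2.13 without fracture and 0.56 at 4 and 6 weeks. Of the 282, it was the larger in 231, and of the 198 against adult rats in 188. Postn had unfractured signals of 5163, 2012 and 300.3 in the order young, adult, older, but 6-week signals of 2568, 3515 and 3635.5. Col3a1 went from 12584, 5901 and 1072 without fracture to 10400.3, 13323 and 13539.9 at 6 weeks. The older value was lowest before fracture and highest at 6 weeks in both genes. Lox had 2527, 338 and 56.1 without fracture and 194, 1628 and 2519 at 6 weeks. The mean log2 signal of the fibrous matrix list without fracture went from 11.16 in young through 9.79 in adult to 8.90 in older rats, and it was 10.46, 11.12 and 11.22 at 6 weeks. That of the bone list was 12.06, 10.67 and 9.83 without fracture and 11.72, 12.03 and 11.85 at 6 weeks. Of the fibrous list, 12 of 20 had a higher later change in older than young rats and 4 of 20 than adult rats, and of the bone list 8 of 13 and 1 of 13.

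**Figure D5:**
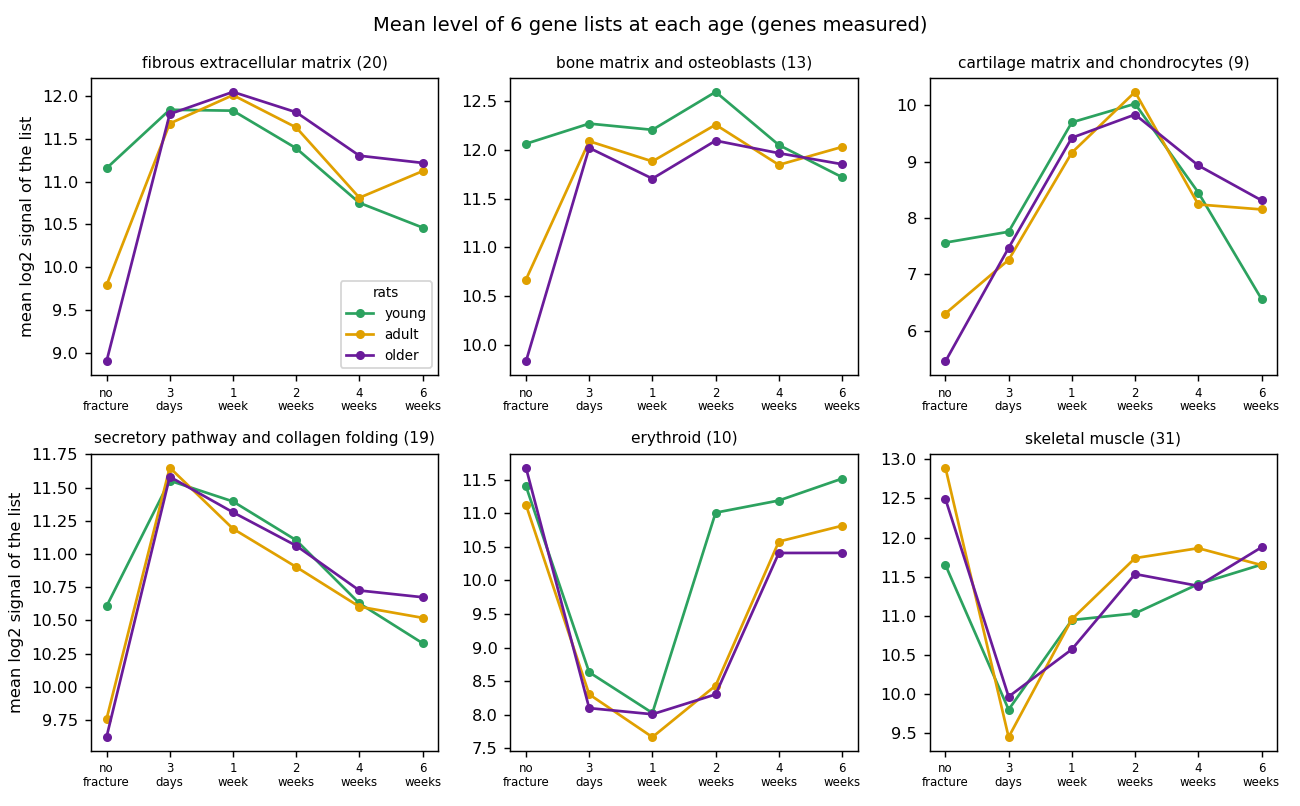
Mean log2 signal of 6 gene lists on the 6 arrays of each age, 1 array per point, with the number of genes measured in each panel title. The matrix and secretory lists of the older rats start lowest without fracture and lie close to the other ages at 3 days, and the erythroid list of young rats is back at 2 weeks while those of adult and older rats are not.

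The share of responding probe sets that had not returned was 70.2% up and 51.1% down in older rats, 58.7% and 46.3% in adult rats, and 10.7% and 8.98% in young rats. Each share was taken against the unfractured array of its own age, and these counts have no test. Raised and lowered responders numbered 1006 and 1223 in older, 969 and 945 in adult, and 374 and 412 in young rats. In young rats 78 of those raised and 31 of those lowered were at least 2-fold from no fracture in the opposite direction at 6 weeks. The 6-week Gapdh 3' to 5' ratio was 6.57 in young and 1.19 in older rats, and its part in these shares was not tested. The probe sets not returned in older and adult rats shared 386 raised, which is 54.7% of the older and 67.8% of the adult set, and 122 lowered, 19.5% and 27.9%. With young rats 17 raised (2.41% of the older and 42.5% of the young set) and 12 lowered (1.92% and 32.4%) were shared.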

How the data were processed

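Gene expression in the femora of older rats was measured on Affymetrix Rat Genome U34 arrays, 1 array per time point. The deposited values were linear intensities per probe set, computed by the authors with Microarray Suite with each array brought to an average of 500. Of 8799 probe sets, 59 controls were dropped, leaving 8740. Signals below 20 were set to 20 and log2 was taken. Symbols came from the platform annotation, updated through RefSeq where possible. A single symbol was held by 7006 probe sets, several by 308 and none by 1426, and 6994 gene identifiers were found in the RefSeq table. A gene with several probe sets was represented by its brightest.

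The callus phase was tested against the other times with limma 3.58.1 in R 4.3.3, with moderated statistics, an intensity trend and Benjamini-Hochberg adjustment over all probe sets, on the 6 older arrays. All other contrasts came from 1 fit of the 18 arrays in groups of age and phase (no fracture, callus phase, 4 and 6 weeks), except the comparison of callus-phase differences between ages, which had time point as a term. Descriptive tables and figures used Python 3.11.15, pandas 2.3.3, numpy 2.4.6 and matplotlib 3.10.9. Simulated data were used for the fits of the callus phase against the other times and of 4 and 6 weeks against no fracture. The fit of the callus-phase difference between older and adult rats was also run on them, and the other steps were not. Floors, offsets, normalizations, minimum signals, other fits and single arrays left out were tried as alternatives. A probe set was counted as responding when the mean callus-phase change was at least 2-fold and a signal of 200 was reached on 1 array. Precision is set by how few arrays there were, and nothing shows that 2 rats of a pool stand for the spread between animals. No pair of arrays held identical values.

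Named genes were first the 12 highest and 12 lowest callus-phase differences. These came from probe sets with an unadjusted p under 0.05, a mean signal of at least 200 and no overlap between phases. Also named were the 10 largest changes not returned in each direction. For each other contrast the 5 largest passing were named, among genes with a mean signal of at least 200 on the older arrays. Up to 4 passing members of each gene list were added, with any member against its list, and genes of 2 of the study's neural groups. Other list members are named for their role and were chosen after their values were seen. The members, lists and tests were chosen with earlier results of these data known. The lists were cartilage, bone and fibrous matrix, proteases, osteoclasts, inflammatory mediators, growth factors, secretory pathway, cell cycle, erythroid, granulocyte, B and T lymphocyte, macrophage, mast cell, muscle, regenerating muscle, oxidative phosphorylation, fatty acid oxidation, adipocyte, endothelial, Schwann cell, neuron, interferon-induced, immediate early and housekeeping genes. Promoters were read from a RefSeq table of 250 bases before each start (GRCr8).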

Additional observations from a re-analysis of the deposited data

Results flagged for a closer look

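The later change, 4 and 6 weeks minus no fracture, differed between ages by an interaction contrast in limma over 8740 probe sets. It was higher in older than adult rats for 198 probe sets and lower for 123. Genes are named among those with a mean signal of at least 200 on the older arrays, and dimmer ones are not listed. The 5 largest named on each side were, on the higher side, Bmyc, a Myc family member (3.83), Col11a1 (3.19), Postn (3.15), Sdc1 (2.99) and Col3a1 (2.60), and, on the lower side, Apobec1, an RNA-editing enzyme (-2.97), C5ar1, a complement receptor (-2.93), Smo, the Hedgehog signal transducer (-2.74), Syk, a kinase of immune receptors (-2.35), and Gpr176, an orphan receptor (-2.16), as differences in log2 change with adjusted p of 0.05 or less. Bmyc had signals of 353, 605 and 32.5 without fracture in young, adult and older rats, and the lowest of its other probe sets had a 6-week change of -1.81 in older rats. Col11a1 had another at -0.22. Syk had 446 in adult and 1251 in older rats without fracture and 1003.5 and 756 at 6 weeks.

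Against young rats it was higher for 282 probe sets and lower for 240. The largest named were Lox (8.21), Acan (7.51), Mxd4, a partner of Max (7.02), Gja1 (6.17) and Fat1, a protocadherin (5.55), and on the lower side Trhr (-3.41), Glul, glutamine synthetase (-2.28), Mep1a (-1.74), Or9s23b (-1.45) and Milr1, a receptor of mast cells (-1.35). Other probe sets of Trhr and Glul had 6-week changes of up to 0.81 and 0.75 in older rats. Acan had signals of 521 in young and 18.8 in older rats without fracture and 22.3 and 570.4 at 6 weeks. Gja1 had 340.5 and 22.3 without fracture and 66.4 and 703 at 6 weeks. In both genes the older signal was the lower of the pair without fracture and the higher at 6 weeks. Groups of 3 arrays or fewer were not searched for outlying samples.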

How the results depend on the processing

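No called value reversed its direction, although the small median of the endothelial list changed sign, as given below. Of the counts and medians, 149 values under other settings stayed close and 77 moved. For single genes, each gene under each other setting was counted as 1 value. Of these values 669 were unchanged, 82 lost a call and 36 gained one. Unchanged means called or uncalled as before or, for genes not returned, still at least 2-fold from no fracture, so it includes genes that were never called. In the callus phase against the other times, the higher and lower counts were 7 and 35 with a floor of 1, 9 and 38 with log2(signal + 50), 6 and 28 for mean signals of at least 200, 8 and 34 with all 18 arrays in the fit, 0 and 0 with quantile normalization and with median centring, 0 and 1 without the intensity trend, and, by an equal-variance t-test, 0 and 0 after adjustment and 27 and 85 at an unadjusted p under 0.005, a limit that the methods give for the change call between arrays and not for a t-test. Leaving out 1 array gave 0 to 11 and 0 to 21. Of the 12 genes named as higher, Kctd13 and Pdlim5 passed with a floor of 1, and of the 12 lower Rsad2, Hba-a3, Slc4a1, Ighvl1, Alas2 and Cd72 did. Against 4 and 6 weeks the counts were 17 and 47 with a floor of 1, and 4 to 28 and 8 to 102 with 1 array left out. Against no fracture 794 fell for mean signals of at least 200, and leaving out 1 array gave 823 to 987 and 1106 to 1415.

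At 4 and 6 weeks against no fracture, 295 rose with the older arrays alone in the fit, 199 fell with a floor of 1 and 194 for mean signals of at least 200, and leaving out 1 array gave 339 to 602 and 321 to 533. The difference of the callus phase between older and adult rats was higher for 1 with a floor of 1 or no time point term, and for 283, with 159 lower, without 4 and 6 weeks. Leaving out 1 time gave 0 to 3 and 0 to 1. Between older and young rats it was higher for 1 with quantile normalization, and for 218, with 315 lower, without 4 and 6 weeks. Leaving out 1 time gave 0 to 6 and 0 to 16. The later difference from adult rats gave 8 and 5 with a floor of 1, 5 and 3 for mean signals of at least 200, and 179 to 211 and 102 to 161 with 1 array left out. That from young rats was lower for 27 and 9 under those settings, with 191 to 431 and 185 to 421 when 1 array was left out, the highest without the 4-week array of young rats. The causes were not tested.

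List medians moved for Schwann cells to -0.0549, T lymphocytes to -0.13, endothelium from -0.02 to 0.16 and growth factors to -0.0317 with quantile normalization, and for endothelium to 0.0592 with the mean of all probe sets. Not returned were 1100 raised and 1361 lowered at 1.5-fold, 275 and 71 at 4-fold, and 1137 lowered with no minimum signal. For mean signals of at least 200, 1437 probe sets could be ordered, 576 of them highest without fracture. The comparisons of the callus phase with no fracture and with 4 and 6 weeks alone, the later differences between ages, and their alternatives were chosen after seeing the data. No paired analysis was possible because the labels number no replicates, and the time points that the ages share entered the fit of callus-phase differences between ages as a term. Each time point was 1 array, so neighbouring times cannot be told apart by a test, and dim probe sets near the floor have only bounds.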
